A study of Mus musculus with 20 samples.

Results

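The 30 genes described here build, sense, store, move and export cholesterol, and they were taken by symbol from 2 gene tables of mouse brain monocytes and microglia. All 30 were among the 16536 genes of the GFP table, and 29 were among the 16140 genes of the Cre table, in which Tm7sf2 was not listed. The genes fall into 7 enzymes of the mevalonate branch, 11 enzymes of the squalene and sterol branch, 5 genes of SREBP control, and 7 genes of the liver X receptors, efflux, storage, transport and uptake. All cells came from brains taken 3 days after permanent photothrombosis, a stroke model in which light activates a dye and closes vessels of the cortex.

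The Cre table held 12 libraries. KO monocytes were TdT-positive cells from 3 mice labelled Cxcr4CreER KO; CreER is a Cre recombinase that tamoxifen switches on, and TdT is a red fluorescent protein. Control monocytes were TdT-positive cells from 3 Cxcr4CreER control mice. KO microglia and control microglia were the TdT-negative cells of 3 mice per genotype, so TdT label and population coincide. In each genotype 2 of 4 animals gave both populations. The GFP table held 8 libraries of Cxcr4-GFP reporter mice, with 4 of GFP-positive monocytes and 4 of GFP-negative microglia, and reporter signal and population coincide there too. Of these 4 pairs, pair 1 came from 2 mice, pair 2 from 5 pooled mice, and each of the other pairs from 1 animal. Titles of the GFP libraries carry the same tag, BrKo, as those of the KO libraries, and the labels do not explain it. The labels give no age, no tamoxifen schedule and no allele beyond these names.

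Cells make cholesterol from acetyl-CoA through mevalonate, farnesyl diphosphate, squalene and lanosterol. When sterol in the endoplasmic reticulum is low, SCAP carries the SREBP transcription factors to the Golgi, where they are cleaved and then switch on the synthesis enzymes, and when it is high, INSIG proteins hold SCAP back. Oxysterols activate the liver X receptors (LXR), which raise transcription of the exporters ABCA1 and ABCG1 and of MYLIP, a ubiquitin ligase that marks lipoprotein receptors for breakdown. Phagocytes that take up myelin and dead cells after a stroke receive much cholesterol, which they store as esters made by SOAT1 or export.

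The deposited values are normalized counts, made by dividing the reads of a library by its size factor, and they are compared here only within a table and within a gene. Libraries held 0.617 to 14.9 M reads in the GFP table and 9.73 to 56.8 M in the Cre table. GFP monocytes 3, GFP microglia 3 and GFP microglia 4 stood apart, with 3029, 5598 and 3489 genes detected, and only 1, 5 and 2 of the 18 enzymes were detected in them. Control monocytes 2 had the fewest detected genes of the Cre table, 10350. Cxcr4 was at 784, 1010 and 536 in KO monocytes, against 1183, 1332 and 1166 in control monocytes, a lower level without overlap that was not called (log2 difference -0.70, limma adjusted p = 0.962). Summed over the 6 microglia markers, KO monocytes had 18116 to 31271 and control monocytes 18190 to 27554, against 181942 to 218475 in KO microglia and 152293 to 218132 in control microglia. The 6 monocyte markers summed to 118666 to 159043 in KO monocytes and 123904 to 140487 in control monocytes, against 1722 to 4519 in KO microglia and 1475 to 4059 in control microglia. The 6 neutrophil markers summed to 38585 to 70563 in KO monocytes and 16343 to 40587 in control monocytes, against 0 to 2901 in KO microglia and 0.703 to 176 in control microglia. Of these, 5 of 6 were called higher in monocytes, Ly6g and Mmp8 were at 0 in all microglia of the Cre table, and the part of these cells in the results was not tested.

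The promoters below belong to Insig1, Soat1 and Mylip, which differed between the populations, and to Hmgcs1, the only one of the 25 sterol genes with a promoter sequence that held the sterol response element searched for. Each is given 5′ to 3′ from RefSeq (GRCm38.p6), from 250 bases before to 50 bases after the start of the gene. Capitals mark the sterol response element (TCACNCCAC), the CCAAT box (CCAAT, read as ATTGG on the other strand) and the E-box (CACGTG), each searched on both strands. Hmgcs1 lies at chr13:119690101-119690400, plus strand, Insig1 at chr5:28071162-28071461, plus strand, Soat1 at chr1:156474279-156474578, minus strand, and Mylip at chr13:45389492-45389791, plus strand.
Hmgcs1: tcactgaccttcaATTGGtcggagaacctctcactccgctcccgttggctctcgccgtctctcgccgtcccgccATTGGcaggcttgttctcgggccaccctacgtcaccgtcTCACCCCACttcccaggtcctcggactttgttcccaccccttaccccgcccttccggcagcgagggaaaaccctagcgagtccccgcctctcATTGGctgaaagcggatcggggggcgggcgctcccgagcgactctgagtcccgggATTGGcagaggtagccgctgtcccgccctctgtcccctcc
Insig1: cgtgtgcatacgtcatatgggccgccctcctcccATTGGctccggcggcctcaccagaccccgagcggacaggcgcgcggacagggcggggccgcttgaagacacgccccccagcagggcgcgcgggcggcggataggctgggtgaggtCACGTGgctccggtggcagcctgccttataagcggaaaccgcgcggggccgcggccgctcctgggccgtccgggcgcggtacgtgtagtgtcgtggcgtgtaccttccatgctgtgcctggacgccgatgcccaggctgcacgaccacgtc
Soat1: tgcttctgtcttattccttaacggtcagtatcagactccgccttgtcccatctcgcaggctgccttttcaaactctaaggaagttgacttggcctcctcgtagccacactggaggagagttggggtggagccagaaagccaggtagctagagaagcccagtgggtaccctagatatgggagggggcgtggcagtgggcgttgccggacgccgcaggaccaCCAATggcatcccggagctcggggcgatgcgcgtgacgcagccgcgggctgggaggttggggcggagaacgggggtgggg
Mylip: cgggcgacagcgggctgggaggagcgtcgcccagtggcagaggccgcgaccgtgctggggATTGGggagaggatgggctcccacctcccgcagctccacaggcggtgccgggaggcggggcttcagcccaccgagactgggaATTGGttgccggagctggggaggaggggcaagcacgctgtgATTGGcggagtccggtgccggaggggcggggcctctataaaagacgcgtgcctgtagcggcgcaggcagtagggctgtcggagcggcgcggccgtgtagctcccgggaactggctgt
Matches of different motifs did not overlap. The sterol response element was in 1.24% of all 32851 promoters of that length and in the Hmgcs1 promoter above from base 114. The CCAAT box was in 14 of 18 promoters of sterol enzymes, 77.8%, against 37.4% of all promoters, and in all 4 sequences above. The E-box was in 7 of the 34 promoters of sterol genes, against 7.15% of all promoters, and began at base 150 of the Insig1 promoter. These 7 belong to 6 of the 25 genes, since the 2 promoters of Scap overlap and hold the same E-box. The direct repeat of LXR sites (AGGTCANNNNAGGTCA) was in none of the 34 and in 0.0152% of all promoters. A match says only that these letters are present.

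Between monocytes and microglia of the Cre table, for the mean of both genotypes, 5 of 29 sterol genes and none of the 17 enzymes were called at a Benjamini-Hochberg adjusted p under 0.05 (limma, 12432 genes tested), beside 14.3% of all genes tested, which is near the share of sterol genes. Soat1, Nr1h3, Abcg1 and Insig1 were higher in monocytes, beside 6.99% of all genes tested, and Mylip was lower, beside 7.27%. Soat1, Abcg1 and Mylip were also the 3 of 29 whose populations did not overlap, beside 8.97% of all genes tested. The median log2 difference of the sterol genes was 0.22, against -0.30 for all genes tested. In these bulk libraries fewer cells of a type and less RNA per cell cannot be told apart.

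Mylip encodes the ligase, also called IDOL, that sends lipoprotein receptors to the lysosome, and it is a textbook LXR target. Its level was 2878, 3142 and 2651 in KO monocytes, 3015, 2909.9 and 2473 in control monocytes, 13510, 12268 and 11949 in KO microglia and 10266, 13169.8 and 8092 in control microglia. All 6 monocyte libraries lay below all 6 microglia libraries, and the genotypes overlapped within each population. The means were 2845 ± 244 in monocytes and 11542 ± 2037 in microglia (SD, n = 6 each), a level 4.06-fold lower in monocytes, with a log2 difference of -2.004 (SE 0.16, limma adjusted p = 8.1e-06). Within each genotype it was also called, at -2.12 in KO cells (adjusted p = 0.000220) and -1.88 in control cells (adjusted p = 0.000431), comparisons that use the same 12 libraries.

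Soat1 encodes the enzyme that joins cholesterol to fatty acids for storage in lipid droplets. It stood at 11528, 24382 and 15542 in KO monocytes, 14444, 30968 and 13100.1 in control monocytes, 3803, 5889 and 4646 in KO microglia and 7206, 3450.2 and 3337 in control microglia. Every monocyte library was above every microglia library, although KO monocytes 2 and control monocytes 2 were well above the other monocyte libraries. Averages of 18328 ± 7653 in monocytes and 4722 ± 1544 in microglia (SD, n = 6 each) gave a 3.88-fold higher level in monocytes (log2 difference 1.92, SE 0.29, limma adjusted p = 0.000855). Per genotype the log2 difference was 1.80 in KO cells (adjusted p = 0.0209) and 2.05 in control cells (adjusted p = 0.0108). The call in KO cells was lost without KO microglia 1, KO microglia 3, KO monocytes 2 or KO monocytes 3, at adjusted p of 0.0571 to 0.0838.

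Nr1h3 encodes LXRα, the form of the receptor found mainly in macrophages, liver and fat. It was at 267, 30.8 and 262 in KO monocytes and 191, 0 and 51.1 in control monocytes, and it had no read in any of the 6 microglia libraries. It was thus detected in 5 of 6 monocyte libraries, all but control monocytes 2. Against a floor of 3 reads over the microglia group, the mean was at least 174-fold higher in KO monocytes than in KO microglia and at least 97.1-fold higher in control monocytes than in control microglia. The difference was called for the mean of both genotypes (limma adjusted p = 0.00830) and within KO cells (adjusted p = 0.0308), and not within control cells (adjusted p = 0.177). The KO call was lost with edgeR (adjusted p = 0.106) and without KO microglia 1, 2 or 3 or KO monocytes 1 or 3 (0.0868 to 0.0999). Nr1h2, which encodes the broadly expressed LXRβ, was at 94.6, 115 and 108 in KO monocytes and 109, 103 and 308 in control monocytes. In microglia Nr1h2 was at 69.3, 69.3 and 81.9 in KO cells and 25.3, 134 and 2.56 in control cells. For the mean of both genotypes its log2 difference of 1.62 was not called (limma adjusted p = 0.248). The 5 markers of border-associated macrophages, which are resident at the brain's edges, summed to 7646 to 11752 in KO monocytes and 6038 to 18778 in control monocytes, against 880 to 1588 in KO microglia and 1201 to 3331 in control microglia, and 2 of the 4 tested, Pf4 and F13a1, were called higher in monocytes. Another 1 of the 4 went the other way, at a log2 difference of -0.70, and was not called. Within control cells 1 of the 4 was lower in monocytes without overlap, at -1.91, and not called. Lyve1 was at 0 in all monocyte libraries, and the part of these cells in the Nr1h3 result was not tested.

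Abcg1 encodes an exporter that hands cholesterol to high-density lipoprotein. It was at 52892, 38193 and 38858 in KO monocytes, 40732, 43437 and 39060 in control monocytes, 31059, 30907 and 24053 in KO microglia and 25994, 33483 and 25603 in control microglia. The 6 monocyte libraries all lay above the 6 microglia libraries, with means of 42195 ± 5569 in monocytes and 28517 ± 3785 in microglia (SD, n = 6 each). The level was 1.48-fold higher in monocytes (log2 difference 0.57, SE 0.13, limma adjusted p = 0.00996), and with scaling to the library total the difference was 0.35 and no longer called (adjusted p = 0.159). Abca1, the exporter that loads lipid-poor apolipoproteins, was at 2914, 5369.7 and 3267 in KO monocytes, 3215, 5133 and 2689 in control monocytes, 5048, 4219 and 4597 in KO microglia and 4539, 4146 and 3027 in control microglia. The populations overlapped, and the log2 difference of -0.22 (95% interval -0.71 to 0.28, limma adjusted p = 0.590) was not called.

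**Figure D1:**
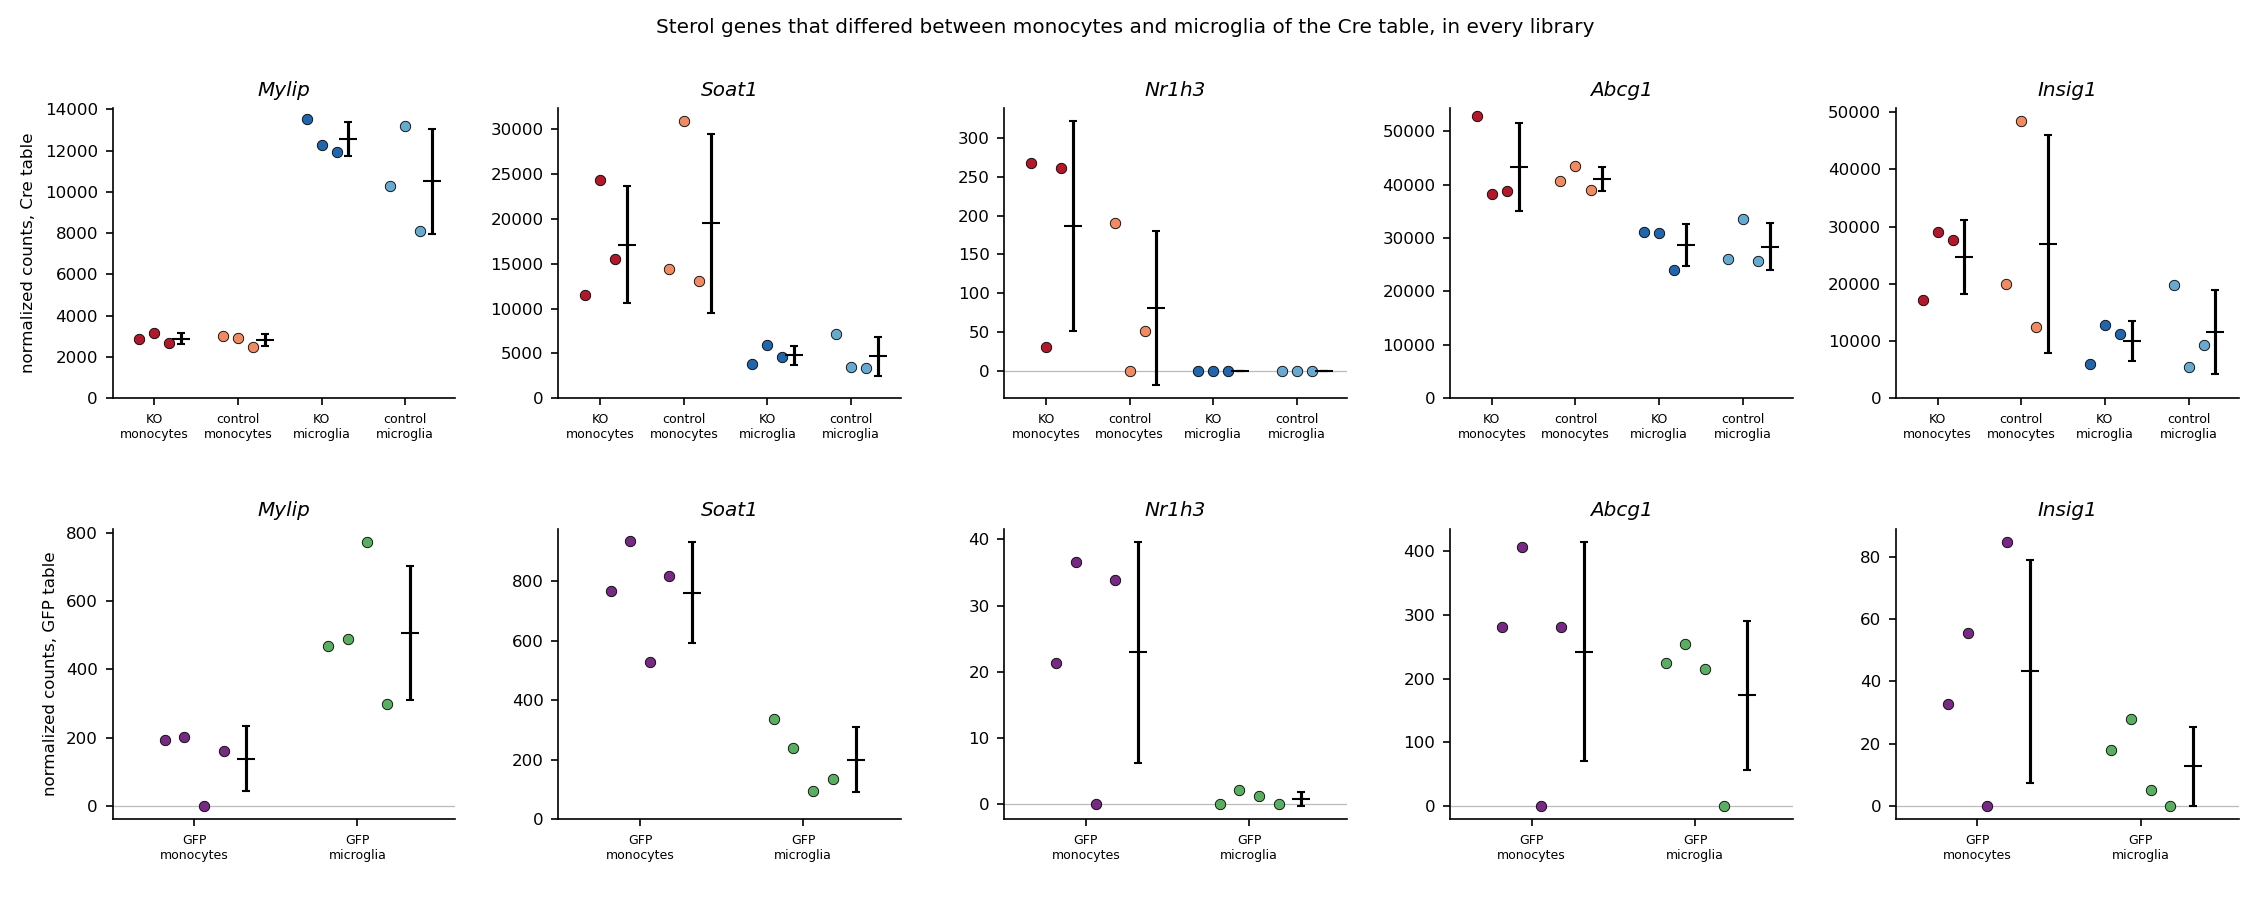
Normalized counts of 5 sterol genes in each library (points) with the group mean and SD (bars), on linear axes, for the 4 groups of the Cre table (top, n = 3 each) and the 2 groups of the GFP table (bottom, n = 4 each). Mylip lies lower, and Soat1 higher, in every monocyte library than in every microglia library of both tables, and Nr1h3 is at 0 in the 6 microglia libraries of the Cre table.

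Insig1 encodes the retention protein that holds SCAP and SREBP in the endoplasmic reticulum, and it is itself switched on by SREBP. Its values were 17224, 29075 and 27571 in KO monocytes, 19916, 48499.9 and 12469.7 in control monocytes, 5981, 12749 and 11159.7 in KO microglia and 19712, 5526 and 9289 in control microglia. Control microglia 1 lay above KO monocytes 1 and control monocytes 3, so the populations overlapped, and control monocytes 2 was the highest library. Means of 25792 ± 12767 in monocytes and 10736 ± 5228 in microglia (SD, n = 6 each) gave a 2.40-fold higher level in monocytes (log2 difference 1.27, SE 0.38, limma adjusted p = 0.0441). The call was near the threshold: it was lost with edgeR (0.0544), with no filter on low values (0.0506), with upper quartile scaling (0.0534) and with total scaling (0.0549). It was also lost when any 1 library was left out (0.0542 to 0.106), other than KO monocytes 1, control monocytes 3 and control microglia 1. The other genes of SREBP control were not called. Insig2, the second retention protein, had a lowest, median and highest value of 42.2, 514 and 680.3 in monocytes and 94.8, 748 and 1395 in microglia. Srebf1, whose product mostly drives fatty acid genes, was at 2.19, 135 and 595 in monocytes and 0, 56.2 and 183 in microglia. Srebf2, whose product is the main switch of the cholesterol enzymes, was at 0, 89.0 and 297 in monocytes and 0, 106 and 143 in microglia. Scap, the escort of both, was at 2.19, 125 and 284 in monocytes and 0, 109 and 226 in microglia. For these 4 genes the populations overlapped, and Srebf1, Srebf2 and Scap each had a library at 0.

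**Figure D2:**
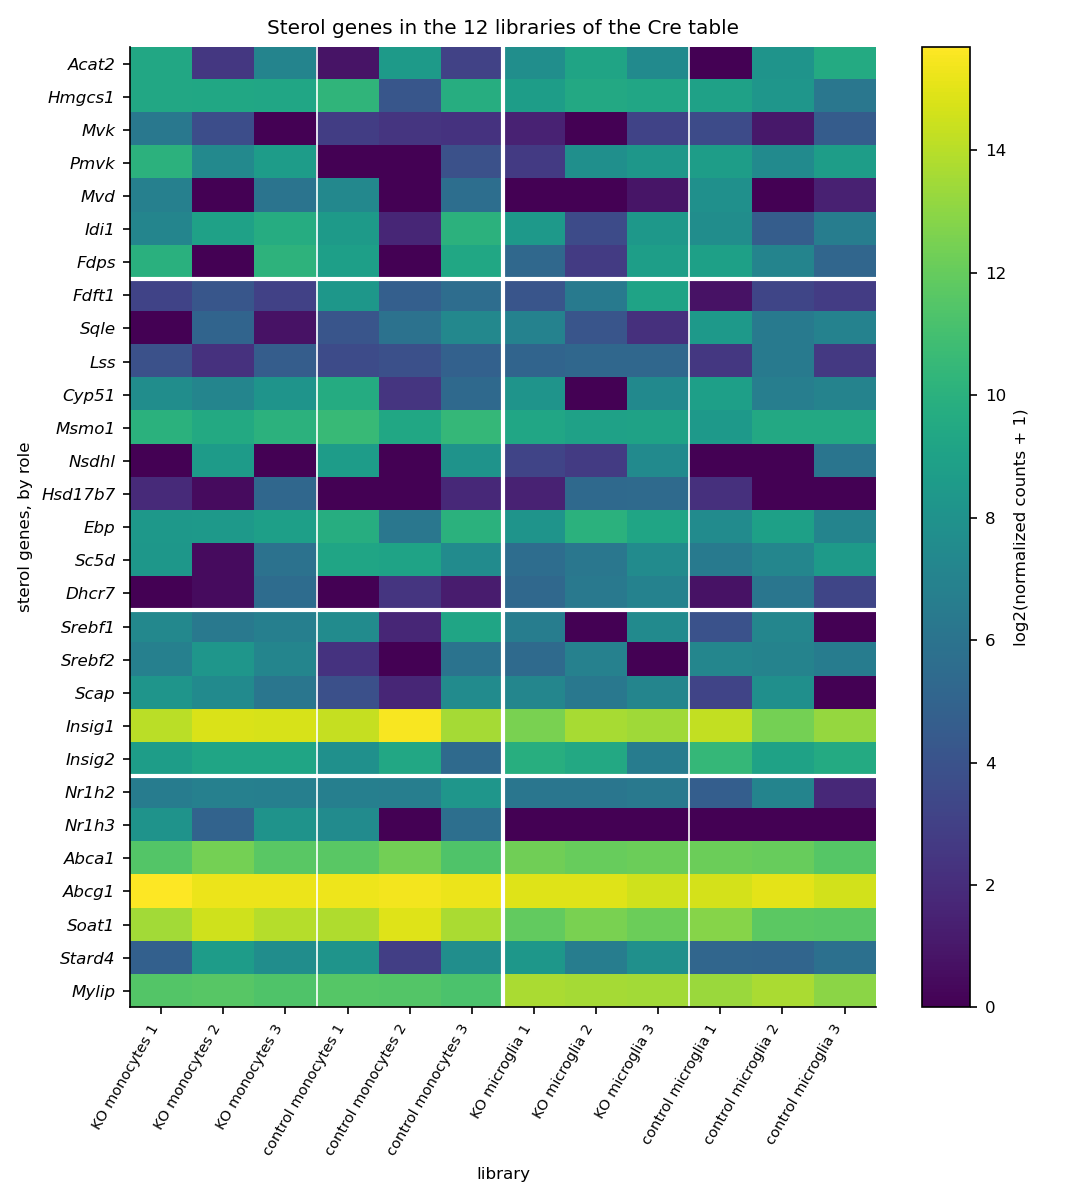
Levels of the 29 sterol genes of the Cre table in its 12 libraries, as log2(normalized counts + 1) on the colour scale, with genes ordered by role and white lines between roles and groups. Insig1, Abca1, Abcg1, Soat1 and Mylip are bright in every library, while most enzymes change from library to library within a group. Colours are to be read along a row, since levels are not compared between genes.

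The first 7 enzymes make farnesyl diphosphate from acetyl-CoA, and limma called none between monocytes and microglia for the mean of both genotypes. With 1 library left out, limma called 1 enzyme for that mean in 3 cases: Dhcr7 without KO monocytes 3, Msmo1 without control monocytes 2 and Pmvk without KO microglia 1. Given as the lowest, median and highest of 6 libraries, Acat2, the thiolase of the first step, was at 0.790, 69.6 and 672 in monocytes and 0, 249 and 772 in microglia. Hmgcs1, the synthase that makes HMG-CoA, was at 17.6, 653 and 1218 in monocytes and 75.2, 462 and 700.1 in microglia. Mvk, mevalonate kinase, was at 0, 5.35 and 78.1 in monocytes and 0, 4.79 and 23.1 in microglia. For these 3 genes the ranges of the populations overlapped. Pmvk, phosphomevalonate kinase, was at 0, 89.9 and 1069 in monocytes and 5.47, 273 and 429 in microglia. Mvd, the decarboxylase after it, was at 0, 56.7 and 159 in monocytes and 0, 0.431 and 231 in microglia. Idi1, the isomerase of isopentenyl diphosphate, was at 2.19, 440.0 and 1086 in monocytes and 11.2, 153 and 338 in microglia. Fdps, farnesyl diphosphate synthase, was at 0, 561 and 1113 in monocytes and 5.62, 85.6 and 484 in microglia, and it shares 77.4% of its exon bases with an overlapping gene model on the same strand, Gm43738, so its level is uncertain. Of the 7, only Hmgcs1 and Idi1 had reads in all 12 libraries.

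With all libraries, Pmvk was the only enzyme called by limma in any of the 7 comparisons, in control cells. It was at 0, 0 and 14.1 in control monocytes and 417, 178 and 429 in control microglia, with no overlap, and its mean was 72.8-fold lower in control monocytes (log2 difference -7.01, SE 1.59, limma adjusted p = 0.0211). With Soat1 and Mylip, that made 3 of 29 sterol genes called in control cells, beside 6.52% of all genes tested. In KO cells Pmvk was at 1069, 166 and 415 in monocytes and 5.47, 226 and 319 in microglia, which overlapped, and it was not called (log2 difference 2.43, adjusted p = 0.456). The 3 sterol genes called in KO cells were Mylip, Soat1 and Nr1h3, beside 6.83% of all genes tested. The control call of Pmvk was lost with edgeR (adjusted p = 0.111) and without control monocytes 1, control monocytes 2, control microglia 1 or control microglia 3 (0.0601 to 0.0716).

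The 10 enzymes of the squalene and sterol branch in the Cre table turn farnesyl diphosphate into cholesterol, and limma called none for the mean of both genotypes. Msmo1, the methylsterol oxidase, was the steadiest enzyme, at 1056, 747 and 1087 in KO monocytes, 1538, 645 and 1413 in control monocytes, 622, 494 and 535 in KO microglia and 345, 713 and 702 in control microglia. It averaged 1081 ± 353 in monocytes and 568 ± 140.3 in microglia (SD, n = 6 each), with a log2 difference of 0.90 (95% interval 0.18 to 1.62, limma adjusted p = 0.0952), and DESeq2 called it. The lowest, median and highest values of Fdft1, squalene synthase, were 7.35, 22.0 and 317 in monocytes and 0.703, 12.6 and 551 in microglia. Those of Sqle, the epoxidase and a rate-limiting step, were 0, 24.2 and 162 in monocytes and 3.45, 103 and 337 in microglia. Lss, which closes the rings to lanosterol, was at 3.75, 13.5 and 28.1 in monocytes and 4.92, 34.5 and 87.6 in microglia. Cyp51, the lanosterol demethylase, was at 4.39, 172 and 809 in monocytes and 0, 152 and 473 in microglia. Nsdhl, a dehydrogenase that helps to remove methyl groups, was at 0, 136 and 402 in monocytes and 0, 6.91 and 178 in microglia, and had reads in 3 of 6 monocyte and 4 of 6 microglia libraries. Hsd17b7, the reductase that works with it, was at 0, 1.47 and 36.1 in monocytes and 0, 2.67 and 42.2 in microglia.

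Among the last enzymes before cholesterol, Ebp, the sterol isomerase, was at 74.6, 407 and 1034 in monocytes and 132, 384 and 1035 in microglia. Sc5d, the desaturase, was at 0.375, 253 and 598 in monocytes and 48.3, 118 and 377 in microglia. Dhcr7, the reductase of the final step, was at 0, 0.827 and 46.1 in monocytes and 0.703, 54.6 and 125 in microglia, and its lower level in monocytes was not called (log2 difference -3.19, limma adjusted p = 0.114). Stard4, a carrier of free cholesterol between membranes, was at 6.58, 211 and 399 in monocytes and 33.5, 78.3 and 320.1 in microglia and was not called either. Libraries differed over the whole branch: the median enzyme value was 4.39 in control monocytes 2, which had the fewest detected genes, and 317 in control monocytes 1, whose values were the highest of the 6 monocyte libraries for 7 of the 17 enzymes.

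**Figure D3:**
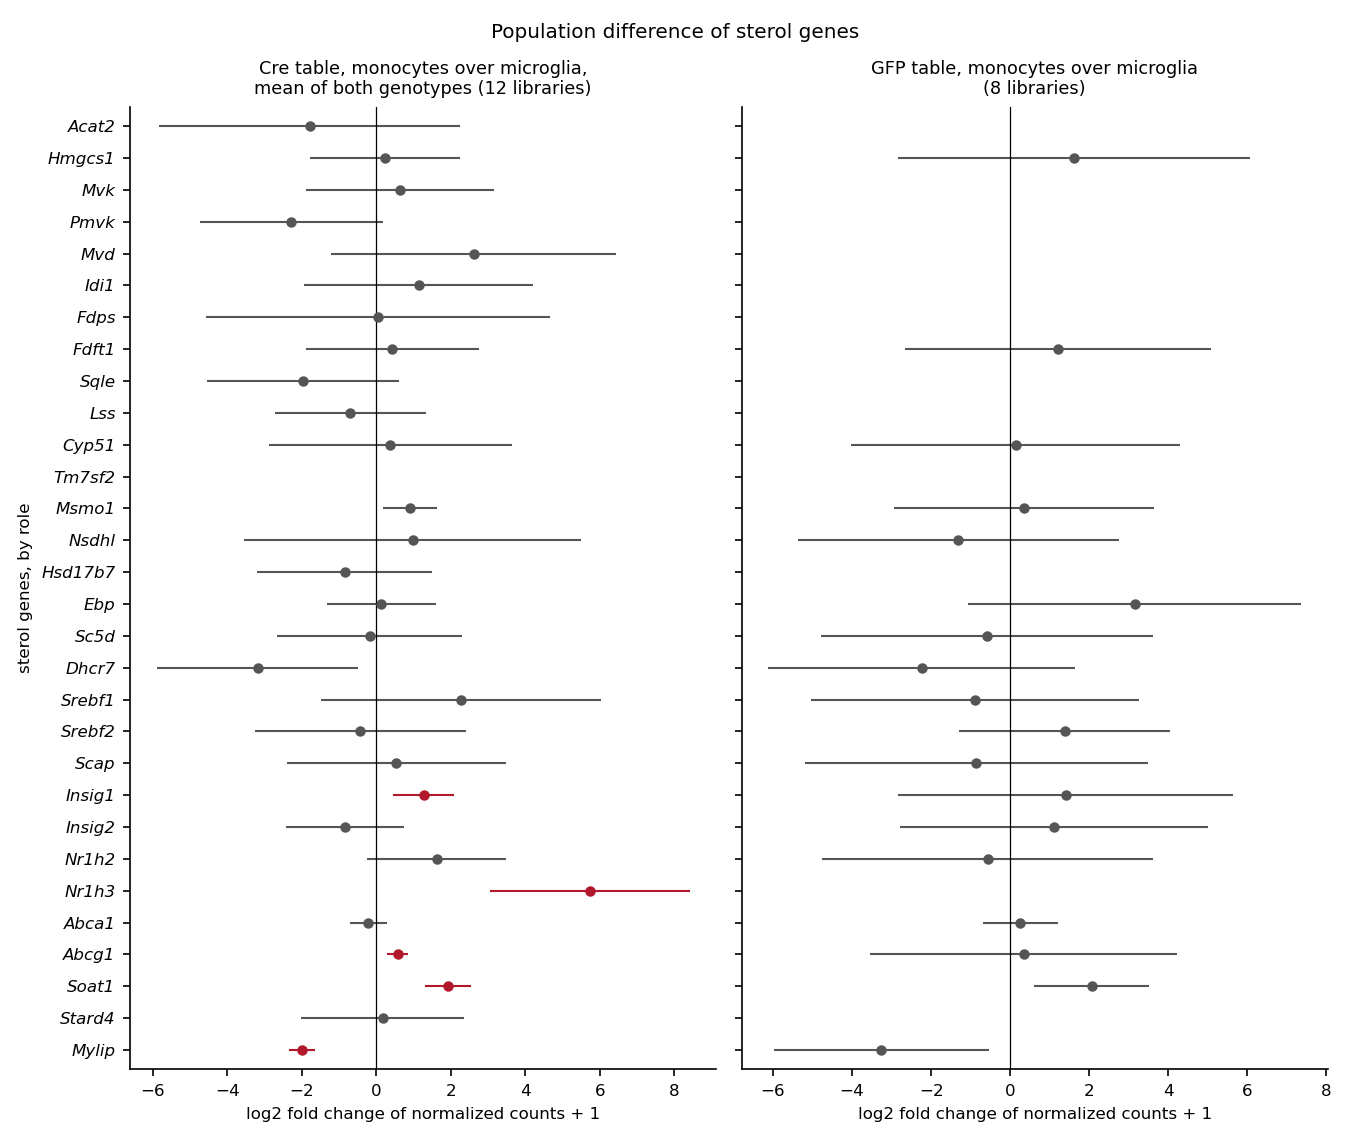
Log2 differences of the sterol genes, monocytes over microglia, with 95% intervals (bars) in the Cre table (left, mean of both genotypes) and the GFP table (right); red marks genes called at an adjusted p under 0.05, and genes below the filter on low values are not drawn. The 5 called genes and Abca1 have short intervals in the Cre table, apart from Nr1h3, and most enzymes have intervals several log2 units wide on both sides of 0.

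The GFP table showed the same separation for Soat1 and Mylip without calls, while Insig1 and Abcg1 overlapped there. Only 18 of its 30 sterol genes passed the filter on low values, and none was called, beside 0.908% of the 7706 genes tested. At an unadjusted p under 0.05 there were 2, beside 7.53% of all genes tested. EdgeR and DESeq2 called 0 sterol genes, beside 100 and 190 of all genes tested. Soat1 was at 767, 935, 530.0 and 817 in GFP monocytes and 336, 238, 93.7 and 133 in GFP microglia, without overlap (log2 difference 2.06, SE 0.71, limma adjusted p = 0.252). Mylip was at 192, 201, 0 and 160.0 in GFP monocytes and 468, 489.7, 773 and 298 in GFP microglia, again without overlap (log2 difference -3.26, SE 1.32, adjusted p = 0.449). Srebf2 was the other gene of the 18 whose groups did not overlap, for 3 in all beside 9.41% of all genes tested, at 94.0, 90.9, 199.6 and 87.3 in GFP monocytes and 38.7, 58.5, 27.5 and 48.9 in GFP microglia. Ebp, next by p, was at 17.5, 12.6, 373 and 29.1 in GFP monocytes and 15.5, 26.7, 0 and 0 in GFP microglia, and the high value is that of a library with few detected genes. Without the 3 libraries of few detected genes, a choice made after seeing the data, Soat1 (1.56, limma adjusted p = 0.000780) and Mylip (-1.38, adjusted p = 0.00232) were called, beside 14.6% of 7264 genes tested. Insig1 (1.22, limma adjusted p = 0.162) and Abcg1 (0.41, adjusted p = 0.338) were not called in this reduced fit. With all libraries Insig1 was at 0 to 84.8 in GFP monocytes and 0 to 28.0 in GFP microglia. Abcg1 was at 0 to 407 in GFP monocytes and 0 to 255 in GFP microglia. Their log2 differences of 1.40 and 0.35 were not called either (limma adjusted p = 0.999 for each).

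Of the genes below the filter, Nr1h3 had 21.3, 36.5, 0 and 33.9 in GFP monocytes and 0, 2.15, 1.25 and 0 in GFP microglia. It was thus low or at 0 in all 4 microglia libraries. GFP monocytes 3, GFP microglia 3 and GFP microglia 4 are the libraries of few detected genes, so a value near 0 there says little. The other 11 genes below the filter were Acat2, Mvk, Pmvk, Mvd, Idi1, Fdps, Sqle, Lss, Tm7sf2, Hsd17b7 and Stard4, with values from 0 to 29.4 in the 8 libraries. Tm7sf2, a sterol reductase listed in this table only, was at 9.40, 0, 0 and 0 in GFP monocytes and 20.7, 5.16, 0 and 0 in GFP microglia. Abca1 was measured in all 8 libraries, at 1748, 1859, 674 and 2048 in GFP monocytes and 2087, 1812, 638 and 914 in GFP microglia, which overlapped.

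The labels set Cxcr4CreER KO mice against Cxcr4CreER control mice in each population. Cxcr4, a chemokine receptor, was at 0 to 0.912 in KO microglia and 0 to 7.88 in control microglia, so the label cannot be checked there, and its lower level in KO monocytes was not called. Limma called no sterol gene in KO against control monocytes, beside 0.0402% of all genes tested. In KO against control microglia none was called either, beside 0.0322% of all genes tested. At an unadjusted p under 0.05 there were 4 sterol genes in monocytes, beside 6.08% of all genes tested, and 2 in microglia, beside 3.53%. EdgeR called no gene of the table in either comparison. DESeq2 called 1 sterol gene in each, beside 338 of all 12432 genes in monocytes and 108 in microglia. For 4 genes with reads in every Cre library the differences are given with their 95% intervals. For KO over control monocytes the log2 difference was 0.05 for Mylip (-0.44 to 0.54), 0.06 for Abcg1 (-0.33 to 0.45), 0.07 for Abca1 (-0.63 to 0.77) and -0.14 for Soat1 (-1.03 to 0.75). For KO over control microglia it was 0.29 for Mylip (-0.21 to 0.78), 0.02 for Abcg1 (-0.37 to 0.40), 0.26 for Abca1 (-0.44 to 0.96) and 0.11 for Soat1 (-0.78 to 0.999).

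**Figure D4:**
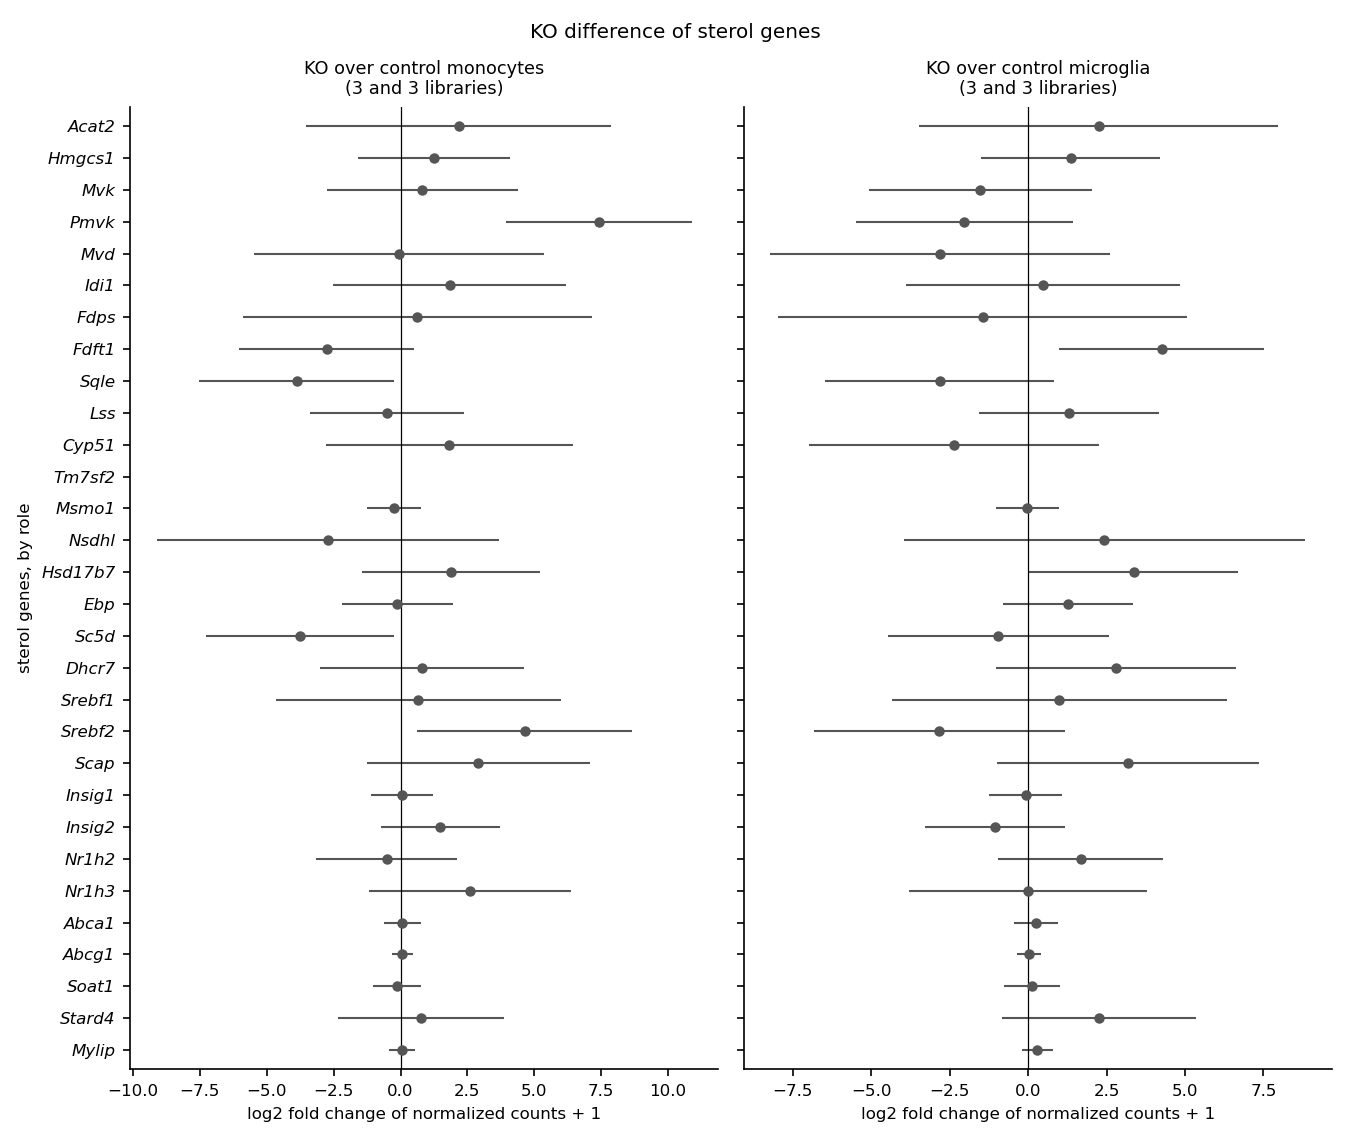
Log2 differences of the 29 sterol genes, KO over control, with 95% intervals (bars) in monocytes (left) and microglia (right), 3 libraries per group. Limma called no sterol gene in either comparison; Mylip, Abcg1 and Abca1 lie close to 0 with short intervals, and Pmvk and Srebf2 in monocytes and Fdft1 in microglia lie away from 0 with wide intervals.

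In monocytes the 3 sterol genes with the smallest p were Pmvk, Srebf2 and Sc5d. Pmvk was at 1069, 166 and 415 in KO monocytes, against 0, 0 and 14.1 in control monocytes (log2 difference 7.41, SE 1.59, limma adjusted p = 0.247), and DESeq2 called it (adjusted p = 0.000274). Srebf2 was at 115, 297 and 139 in KO monocytes, against 3.95, 0 and 62.7 in control monocytes (log2 difference 4.64, adjusted p = 0.762). For both genes every KO library was above every control library, and with Fdft1 on the lower side 3 of 29 sterol genes did not overlap, beside 8.82% of all genes tested. Sc5d was at 317, 0.375 and 58.8 in KO monocytes, against 598, 553 and 189 in control monocytes, which overlapped (log2 difference -3.75, adjusted p = 0.794). The neutrophil markers summed to 48553 at the median in KO monocytes and 29526 in control monocytes, and none of the 6 was called. The 5 neuron markers summed to 0.868 to 201 in KO monocytes and 206 to 676 in control monocytes. The part of these cells in the values above was not tested.

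In microglia the smallest p belonged to Fdft1, Hsd17b7 and Sqle. Fdft1 was at 16.4, 84.2 and 551 in KO microglia, against 0.703, 8.86 and 5.98 in control microglia (log2 difference 4.26, SE 1.497, limma adjusted p = 1), with all KO libraries above all control libraries. DESeq2 called it (adjusted p = 0.0158). Fdft1 shares 774 exon bases, 20.9%, with Ctsb, a cathepsin gene on the opposite strand, and no source used here says whether the counting used strand. Ctsb itself was at 37675 to 42921 in KO microglia and 22787 to 40726 in control microglia. Without strand, reads that lie within the shared bases cannot be told apart, and their part in the Fdft1 values was not tested. Hsd17b7 was at 1.8, 39.3 and 42.2 in KO microglia, against 3.52, 0 and 0 in control microglia (log2 difference 3.36, adjusted p = 1). Sqle was at 124, 16.8 and 3.45 in KO microglia, against 337, 83.7 and 122 in control microglia (log2 difference -2.82, adjusted p = 1). Both overlapped between genotypes. With Fdft1, Stard4 was the other sterol gene that did not, at 320.1, 101 and 229 in KO microglia and 35.2, 33.5 and 55.5 in control microglia, beside 9.46% of all genes tested. The 6 astrocyte markers summed to 2763 to 2965 in KO microglia and 1512 to 2224 in control microglia, and their part in these values was not tested.

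**Figure D5:**
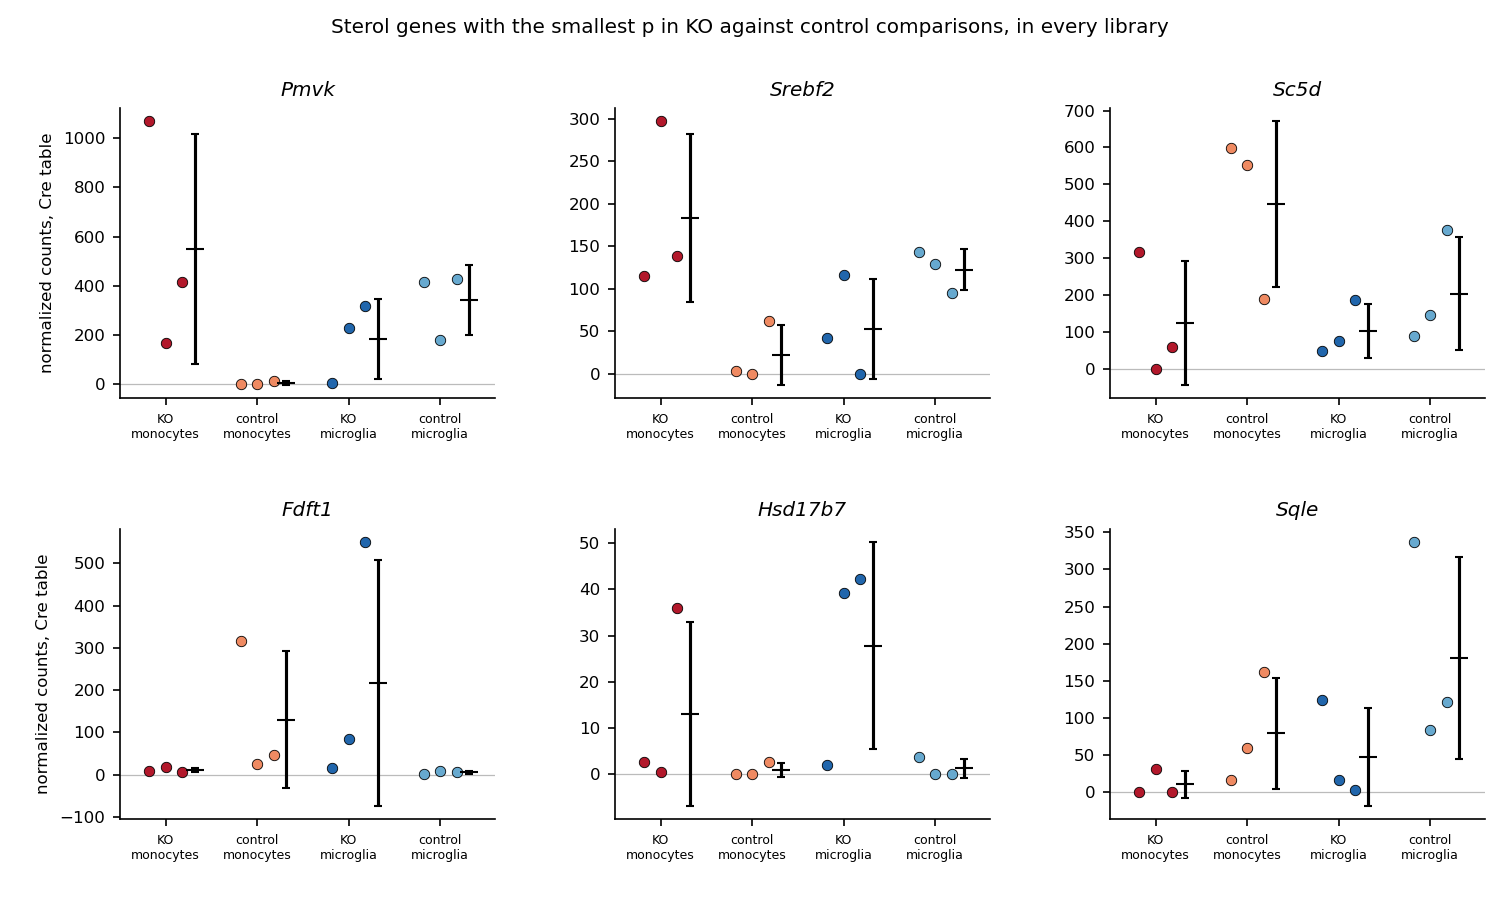
Normalized counts of the sterol genes with the smallest p between KO and control cells, in each library of the Cre table (points) with the group mean and SD (bars, n = 3), on linear axes. Pmvk and Srebf2 are higher in every KO monocyte library than in every control monocyte library. Fdft1 is higher in every KO microglia library than in every control microglia library. Limma called none of these. DESeq2 called Pmvk in monocytes, among 338 genes of the table, and Fdft1 in microglia, among 108.

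The genotype-by-population term tests whether the KO difference of monocytes departs from that of microglia. No sterol gene and no gene of the table was called by limma (0% of 12432 genes tested). EdgeR called no gene of the table either, and DESeq2 called 2 sterol genes, beside 276 of all 12432 genes. An unadjusted p under 0.05 was found for 3 sterol genes, beside 4.75% of all genes tested. These 3 were Pmvk (log2 9.44, SE 2.25, limma adjusted p = 0.621), Fdft1 (-7.01, SE 2.12, adjusted p = 0.897) and Srebf2 (7.47, SE 2.60, adjusted p = 0.945). Fdft1 was at 7.81, 17.6 and 7.35 in KO monocytes and 317, 26.3 and 47.3 in control monocytes, opposite to its order in microglia. Srebf2 in microglia was at 41.9, 116 and 0 in KO cells and 143, 129 and 95.7 in control cells. Each of the 3 terms rests on 1 population in which the gene was higher and 1 in which it was lower in KO cells.

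Other genes of the pathway, in 5 lists, showed where the populations differed outside the 30. These lists were chosen for their roles, but with earlier results of these data known. The shares of all genes tested beside their counts are therefore given for scale only. Among partners, targets and oxysterol enzymes of LXR, 2 of 10 tested genes were called higher in monocytes and 1 lower by limma, for the mean of both genotypes, beside 6.99% higher and 7.27% lower of all genes tested. Apoe, which encodes the main apolipoprotein of the brain, was at 180050, 185423 and 183809 in KO monocytes, 264039, 153461 and 215241 in control monocytes, 13980.5, 10997 and 7894 in KO microglia and 8187, 29521 and 9162 in control microglia (log2 difference 4.04, SE 0.29, limma adjusted p = 3.5e-06). It was also the only gene of these lists called in the GFP table, at 14684, 13021, 6122 and 15060.5 in GFP monocytes and 1609, 1344, 176 and 164 in GFP microglia (log2 difference 4.52, adjusted p = 1.1e-05). Plin2, which coats lipid droplets, averaged 8696 ± 2352 in monocytes and 2069 ± 428 in microglia (SD, n = 6 each), a log2 difference of 2.05 (adjusted p = 5.3e-05). Ch25h, which makes the oxysterol hydroxylated on the side chain, averaged 112 ± 106 in monocytes and 1031 ± 407 in microglia (SD, n = 6 each) and was lower in monocytes, with a log2 difference of -5.09 (adjusted p = 0.00734).

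Of 6 tested genes of lipoprotein uptake, 3 were called higher in monocytes and none lower, beside 6.99% higher and 7.27% lower of all genes tested. The scavenger receptors Cd36, Msr1 and Olr1 had log2 differences of 3.73, 2.60 and 3.89 (limma adjusted p = 0.000338, 0.000564 and 0.0313). Cd36 averaged 3352 ± 1375 in monocytes and 266 ± 156 in microglia (SD, n = 6 each), and Msr1 averaged 4045 ± 1183 in monocytes and 706 ± 309 in microglia (SD, n = 6 each). Of 8 tested genes of intracellular sterol transport, 2 were called higher and 1 lower, beside the same 6.99% and 7.27%. Npc2, which binds cholesterol inside lysosomes, averaged 51605 ± 14709 in monocytes and 16584 ± 959 in microglia (SD, n = 6 each), a log2 difference of 1.59 (adjusted p = 8.3e-05). Lipa, the lysosomal acid lipase that frees cholesterol from esters, averaged 2649.9 ± 525 in monocytes and 748 ± 422 in microglia (SD, n = 6 each), a log2 difference of 2.03 (adjusted p = 0.00658), and Gramd1a, a sterol carrier at membrane contacts, was lower in monocytes (-3.20, adjusted p = 0.0423). Among 9 genes of SREBP processing, 1 was called, beside 14.3% of all genes tested: Mbtps1, the first SREBP protease, at a log2 difference of -1.41 (adjusted p = 0.0147). Among 10 tested genes of fatty acid synthesis, 1 was also called, beside the same 14.3%: Elovl5, an elongase of unsaturated fatty acids, at 1.53 (adjusted p = 0.0466). Within control cells Apoe, Plin2, Npc2, Cd36, Msr1 and Gramd1b were called higher in monocytes. Within KO cells Apoe, Plin2, Npc2, Cd36 and Msr1 were called higher and Ch25h lower, in the libraries that the mean of both genotypes also uses. No gene of the 5 lists was called between KO and control cells in either population.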

How the data were processed

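RNA from monocytes and microglia was measured in 20 libraries of 6 groups. GFP libraries were made with the Nugen Ovation SoLo kit and Cre libraries with SMART-Seq2, per the labels' protocols. The submitters' processing notes name CASAVA 1.82 and DESeq2 on the GFP libraries, and bcl2fastq 2.20, kallisto and DESeq2 on the Cre libraries. No source used here gives a build or annotation. The deposited signal values are normalized counts by the authors' file names; 100% of values lay within 0.01 of whole multiples of 1 step per library, as reads divided by a size factor do, and whole reads were recovered from this. A read is worth 0.104 to 2.58 normalized counts across GFP libraries and 0.375 to 2.19 across Cre libraries. Floors cover counting error only, since no counting by molecular identifier is stated.

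Genes reaching 10 in 4 GFP or 3 Cre libraries were tested as log2(value + 1) with limma 3.58.1 (moderated, intensity trend, two-sided) under R 4.3.3. The added 1 draws the fold changes of low genes toward no change. Log2 differences are between means of log2 values. Libraries near 0 can therefore make them larger than the ratio of mean counts, as for Gramd1a and Ch25h. P-values were adjusted over all genes of a table by Benjamini-Hochberg and called under 0.05. The fit of each table held all its groups, which share 1 spread, and was tested on simulated data. Alternatives were edgeR 4.0.16 and DESeq2 1.42.0 on the recovered reads, a pseudocount of 10, no filter, 2 other scalings, a block for the animal or pool, and each library left out in turn. Same-animal pairs come from the labels; the correlations of their deviations ran from -0.11 to 0.24 for the 4 GFP pairs and from -0.06 to 0.01 for the 4 Cre pairs. Replicates within a group are separate animals or pools.

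The 30 genes, the 5 further lists and the tests were chosen with earlier results of these data known. Named genes are the sterol genes called in a comparison or, where none was called, the 3 with the smallest p, and up to 4 called genes per further list and comparison; other sterol genes are given by range, and Stard4, Abca1, Msmo1, Dhcr7, Nr1h2 and Tm7sf2 were given values after these were seen. Exon overlaps were taken from GENCODE M21 (GRCm38). Each table has its own kit and was normalized separately, so no value is compared across tables.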

Additional observations from a re-analysis of the deposited data

Results flagged for a closer look

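Among the 8 sterol genes named from the tests that the GFP table measures, each GFP group of 4 libraries was searched for a lone library, by the ratio of its gap to the group's whole range against 0.829. Chance marks about 1 in 20 groups of normally distributed values, and 4 of 16 were marked. The values here are untransformed counts with zeros, and the 16 groups share the same libraries. That rate therefore need not hold here. Ebp was at 373 in GFP monocytes 3, against 12.6 to 29.1 in the other 3 GFP monocyte libraries. Srebf2 was at 199.6 in the same library, against 87.3 to 94.0 in the others. Sc5d was at 134 in GFP microglia 3, against 0 to 16.8 in the others, and Abcg1 was at 0 in GFP microglia 4, against 215 to 255. All 4 marks fall in the 3 libraries of few detected genes.

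Among the 29 sterol genes of the Cre table, only Fdft1 was apart in opposite directions in the 2 populations. Each KO monocyte library was below each control monocyte library, and each KO microglia library above each control microglia library. Of all genes tested, 8.82% did not overlap in the monocyte comparison and 9.46% in the microglia comparison. The share apart in opposite directions was not counted. Fdft1 shares 20.9% of its exon bases with Ctsb on the opposite strand. The genotype-by-population term of Fdft1 was -7.01 on the log2 scale, with an adjusted p of 0.897 by limma, and -8.97 with an adjusted p of 0.000638 by DESeq2. For this term DESeq2 called 276 of all 12432 genes, and limma called none.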

How the results depend on the processing

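Of 106 counts of called sterol genes recomputed under the alternatives, 96 were kept. Kept means within 1.5 times the reported count, so that a fall from 3 to 2 is kept, or staying at 0. Comparisons with a reported count of 0 make up much of the 106, so the kept share says little about the other comparisons. In all but 1 recomputed value the named sterol genes kept their direction. DESeq2 on the recovered reads called 5 sterol genes in control cells and 5 in KO cells between the populations (Fdft1 and Nr1h3 added in control cells, Fdft1 and Abcg1 in KO cells), 1 in KO against control monocytes (Pmvk), 1 in KO against control microglia (Fdft1) and 2 for the genotype-by-population term, and for the mean of both genotypes it added Msmo1. Scaling to library totals left 3 for the mean of both genotypes, moved the median of all genes from -0.30 to -0.49 and turned the 869 higher and 904 lower calls of the table into 693 and 1108. Leaving out each library in turn gave 2 to 3 called in control cells, 1 to 2 in KO cells, 4 to 5 for the mean of both genotypes, and 0 in the GFP table, in both KO against control comparisons and for the term. The count fell to 1 in KO cells without KO microglia 1, KO microglia 3 or KO monocytes 3. Mylip was called between the populations of the Cre table under every alternative run. Without the 3 GFP libraries of few detected genes, 2 sterol genes were called, and Ebp turned to -0.12. The replicate block changed no call of a sterol gene; with it 5 were called for the mean of both genotypes and 60 genes of the GFP table in place of 70. Over the 12432 Cre genes tested, DESeq2 called 1614 in control cells and 1570 in KO cells, against 810 and 849 by limma. For the mean of both genotypes it called 2639, against 1773. It called 338 in KO against control monocytes, 108 in microglia and 276 for the term, against 5, 4 and 0. Of the 7706 GFP genes tested it called 190, against 70. By edgeR 478 were called in control cells, 522 in KO cells and 0 in both KO against control comparisons. Of the GFP genes, 198 were called with a pseudocount of 10, 38 with no filter, 127 with upper quartile scaling, 33 without GFP microglia 3 and 1058 without the 3 libraries. Leaving out KO monocytes 1 or any KO microglia library gave 480 to 532 in KO cells. Leaving out 1 library gave 1 to 29 in KO against control monocytes, with 29 without control monocytes 1, 0 to 5 in microglia, and 0 to 1 for the term. The cause of these changes was not tested. With 3 libraries per group, the 95% intervals of most enzymes span several log2 units, so a missing call does not show equal levels.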
